A study of Homo sapiens with 4 samples.

Results

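The genes that encode the proteins of the cytosolic ribosome were followed through treatment, cell cycle phase and cluster in single cells of a lobular breast cancer line. Members were rows with a plain gene symbol of the RPL or RPS pattern (with RPLP0, RPLP1, RPLP2 and RPSA, and without the RPS6K kinases) that held at least 50 unique molecular identifiers (UMIs) over all cells. Of 81 rows with such a symbol, 78 passed, out of 33538 plain rows and 10977 plain rows with at least 50 UMIs. The 78 genes comprise 32 of the small and 46 of the large subunit. The other 3 rows, RPL39L, RPL3L and RPL10L, were listed at 0 UMIs in both libraries, and a count of 0 allows up to 0.233 CPM over the 2 libraries together. The smallest totals inside the limit were 2187 UMIs for RPS27L, 2297 for RPL17 and 4710 for RPL36A, so the limit of 50 decided no membership.

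The cells were MDA MB 134VI (MM134), an established line of invasive lobular breast carcinoma, labelled wild type and starved of hormone in charcoal-stripped serum before treatment. They then received 100 nM estradiol for 24 h, or 0.01% ethanol as vehicle for 24 h. Each treatment has 1 expression library, with 3367 cells and 5937422 UMIs for estradiol and 4940 cells and 6918198 UMIs for vehicle in the rows of all genes. With 1 library per treatment nothing could be tested between treatments, so values carry exact 95% intervals that cover counting error only, without variation between cultures or cells.

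A cytosolic ribosome needs 1 copy of nearly every one of these proteins, and the genes are among the most heavily transcribed in a growing cell. Most of their mRNAs begin with a C followed by an unbroken run of pyrimidines, the terminal oligopyrimidine (TOP) tract, through which the growth kinase mTOR and the RNA-binding protein LARP1 control how they are translated. Estrogen drives growth and cell division in cells of this kind, and growing cells build ribosomes.

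The tract is a shared feature that the choice of members did not use, and the transcript starts below show it for genes on which the results turn. RefSeq promoters of GRCh38.p14 held a start for 63 of the 78 genes. Of these, 46 (73.0%) began with C followed by at least 4 C or T in the sense of the transcript, against 5.14% of the 27305 genes of the table. Within 5 bases of the listed start the shares were 84.1% and 25.2%. The tract was 5 to 19 bases long, with a median of 8. It stood at the start of 18 of 25 small subunit genes and 28 of 38 large subunit genes, and of 13 of 14 other genes known for TOP mRNAs. The mitochondrial ribosome, whose proteins come from a separate gene set, gave 6 of 69 (8.70%). Each line below gives 25 bases, 5 before the listed start and 20 from it, 5′ to 3′ on the strand of the gene, with the tract in capitals. The first 4 genes are among the 5 with most UMIs, and RPL39 has the longest tract.
RPS3 (chr11:75399513-75399537, plus strand): cacttCCTTTCCTTTCagcggagcg
RPL41 (chr12:56116628-56116652, plus strand): cctttCTCTCggccttagcgccatt
RPL37A (chr2:216498839-216498863, plus strand): tcttcCTTTCTgggctcggacctag
RPLP1 (chr15:69452813-69452837, plus strand): gagagCCCCTTTCCTCagctgccgc
RPL39 (chrX:119791611-119791635, minus strand): agcttCCCTCCTCTTCCTTTCTCCg

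The next lines give some of the genes that the results name for their ratios and that have a start in the table. RPS27 and RPS27L are a pair of paralogs that differ in the tract, and RPS6 is the small subunit protein that S6 kinases phosphorylate downstream of mTOR.
RPL35 (chr9:124861938-124861962, minus strand): acttcCTCTTTCCCTCggagcgggc
RPL36A (chrX:101391006-101391030, plus strand): ggtttCTTTCTTTCCgcgccgatag
RPS26 (chr12:56041913-56041937, plus strand): acctcgattttcttccgccatccgg
RPL31 (chr2:101002284-101002308, plus strand): gcgctCTTCCTTTCCaacttggacg
RPL15 (chr3:23916540-23916564, plus strand): cctgctggaggagcttcacgcagtc
RPL3 (chr22:39319604-39319628, minus strand): ccggcctctaccggcgggatttgat
RPS13 (chr11:17077648-17077672, minus strand): gctctCCTTTCgttgcctgatcgcc
RPS6 (chr9:19380217-19380241, minus strand): tggccCTCTTTTCCgtggcgcctcg
RPS27 (chr1:153990757-153990781, plus strand): tcgctCCTTTCCggcggtgacgacc
RPS27L (chr15:63157458-63157482, minus strand): cgagcgcagatcgcttgcagcttgc

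RPS26, RPL15, RPL3 and RPS27L have no tract at the listed start, though in RPL3 a run that passes the rule begins just before it. The 46 genes with the tract at a listed start had a median log2 ratio of estradiol over vehicle of 0.02, and the 17 without it there had -0.06. Within 5 bases of a start 53 of the 63 genes had a tract. The 17 therefore include genes with a tract nearby, and the 2 medians do not separate TOP genes from others.

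Ribosomal protein transcripts took almost equal shares of the RNA molecules counted in both treatments. They made up 12.63% of UMIs in estradiol cells (95% interval 12.60 to 12.66) and 12.52% in vehicle cells (12.50 to 12.55). The log2 ratio was 0.01 (0.0077 to 0.017). With MALAT1, a nuclear noncoding RNA that took 4.06% of UMIs in estradiol cells and 5.26% in vehicle cells, left out of the totals, the ratio was -0.0060. Its sign thus depends on the denominator. Mitochondrially encoded genes took 7.67% of UMIs in estradiol cells and 7.74% in vehicle cells. The median estradiol cell held 1561 UMIs and the median vehicle cell 1199, and the mean cell held 222.7 ribosomal protein UMIs in the estradiol library and 175.4 in the vehicle library. More RNA per cell and deeper counting of a library cannot be told apart here.

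Single cells spread widely around these shares. The median cell stood at 12.54% in the estradiol library (quartiles 10.90 and 14.24) and at 12.53% in the vehicle library (10.73 and 14.50). The SD over cells was 2.53 percentage points in the estradiol library, where binomial counting at each cell's depth gives 0.869, and 2.85 in the vehicle library, where it gives 0.990. Cells therefore differed among themselves by more than counting error. Luminal markers of the line were all detected, at a summed 7976 CPM in estradiol cells and 6545 CPM in vehicle cells. Of 5 basal or myoepithelial markers 4 were listed at 0 UMIs, as were 5 of 7 immune or endothelial markers, while 7 mesenchymal markers summed to 196 CPM in estradiol cells and 254 CPM in vehicle cells.

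Levels differed greatly between the genes. CPM, the UMIs of a gene per 1000000 UMIs of the library, count molecules and were not divided by transcript length. The median gene stood at 1597 CPM in estradiol cells and 1588 CPM in vehicle cells. The lowest was RPS27L, at 162 CPM in estradiol cells and 177 CPM in vehicle cells. RPS3, a small subunit protein at the entrance of the mRNA channel that also has activity on damaged DNA, was the highest at 5295 CPM in estradiol cells and 5134 CPM in vehicle cells. It held 3.26 times the UMIs of the median gene. After RPS3 came RPL41, the smallest protein of the ribosome, with 3476 CPM in estradiol cells and 3481 CPM in vehicle cells. RPL37A, a zinc-binding protein of the large subunit, had 3206 CPM in estradiol cells and 3224 CPM in vehicle cells. RPS2 and the stalk protein RPLP1 completed the top 5, and the 10 genes with most UMIs held 24.3% of all ribosomal protein UMIs.

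RPS3 lies on chromosome 11 from 75399518 to 75422302 (GRCh38.p14), and its ratio of estradiol over vehicle was small, at 0.04 (0.02 to 0.07). The 78 genes are spread over 21 chromosomes, with 12 of them on chromosome 19.

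Single genes differed little between treatments, none by as much as 1.5-fold. A gene was called where it differed by at least 1.2-fold with an interval that excluded equality. By that rule 6 of 78 genes were higher with estradiol, beside 12% of the 10977 rows with at least 50 UMIs, and 0 were lower, beside 14.8%. At 1.5-fold 0 genes passed either way, beside 3.4% of rows higher and 5.74% lower. Among 954 other rows with at least 2000 UMIs, 18.3% were called higher and 12.4% lower. The log2 ratios ran from -0.26 to 0.38 with a median of 0.00, where the median over all rows was -0.03. Above 0 stood 39 genes and below 0 another 39, a split that was 46 to 32 with a size factor from the median of ratios and 37 to 41 without MALAT1. Of all rows 45.6% lay above 0, and of the other rows with at least 2000 UMIs 56.3%. By interval alone 28 genes lay above equality and 28 below it, beside 16.2% and 18.4% of all rows, and beside 40% and 28.8% of the other rows with at least 2000 UMIs.

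**Figure D1:**
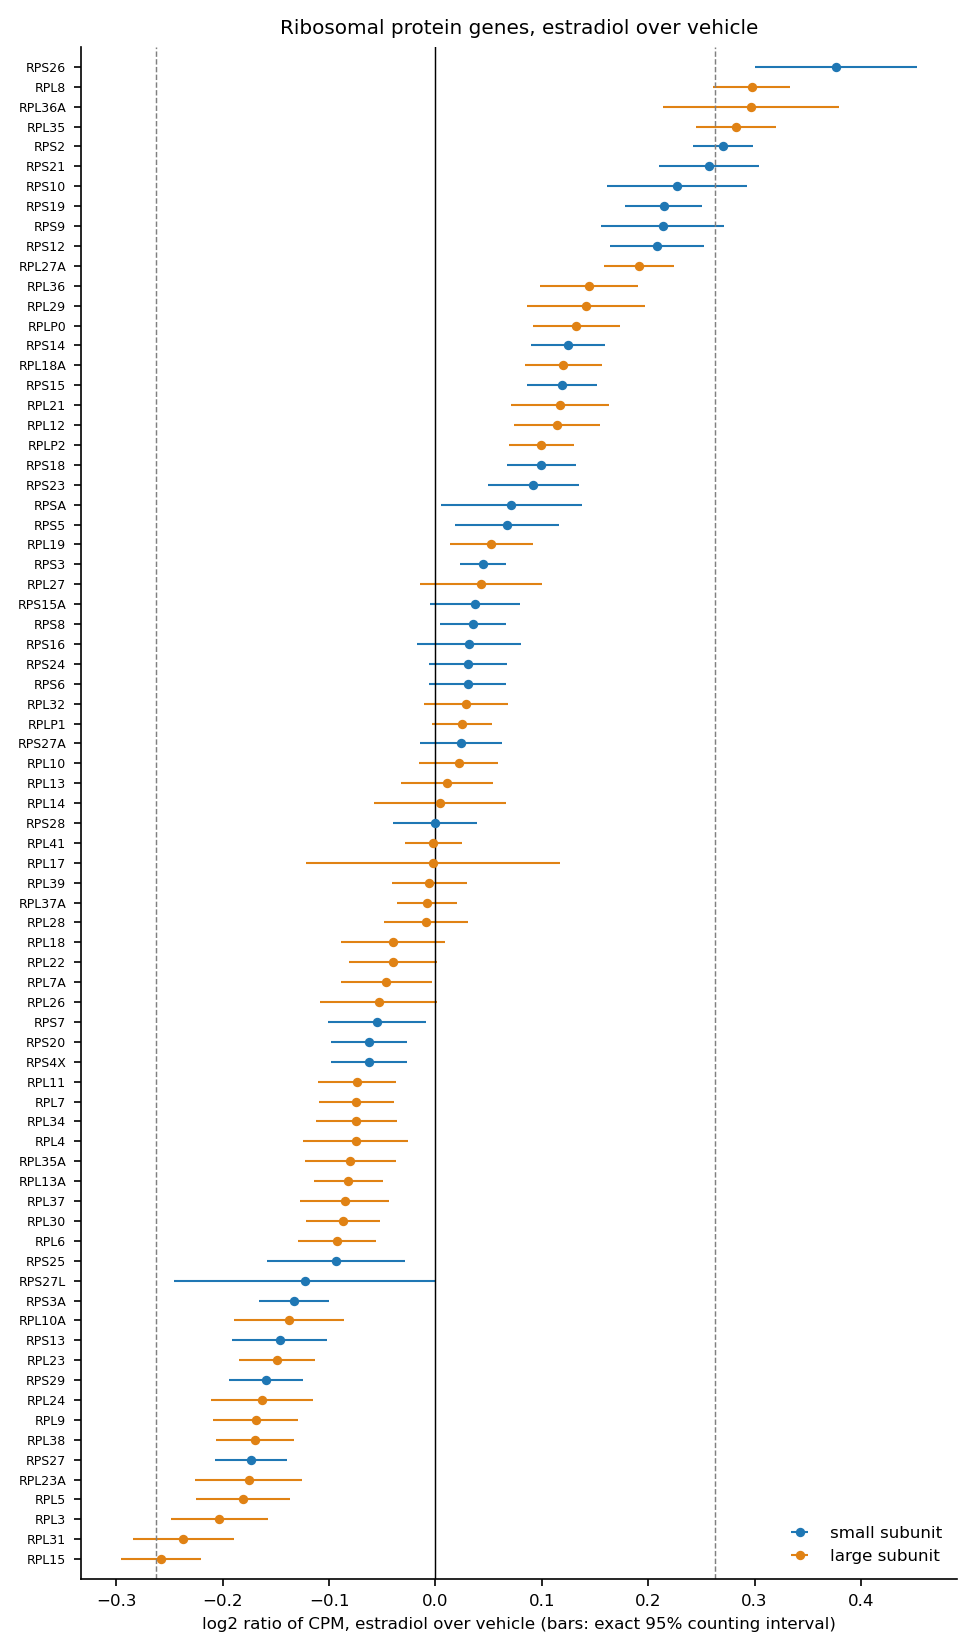
Log2 ratio of CPM in estradiol cells over vehicle cells for 76 of the 78 genes (points) with its exact 95% counting interval (bars), highest at the top, coloured by subunit; dashed lines mark 1.2-fold. RPS26 leads at 0.38, RPL15 at -0.26 is last, and 28 of 46 large subunit genes lie below 0 (23 with a size factor from the median of ratios).

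The genes called higher came from both subunits, and 5 of the 6 are described here. RPS26, a protein at the exit of the mRNA channel, had 496 CPM in estradiol cells and 382 CPM in vehicle cells, a log2 ratio of 0.38 (0.30 to 0.45). It is mutated in some families with Diamond-Blackfan anaemia, an inherited failure of red cell production. RPL8, which lies near the peptidyl transferase centre, had 2145 CPM in estradiol cells and 1745 CPM in vehicle cells, a ratio of 0.30 (0.26 to 0.33). RPL36A stood at 407 CPM in estradiol cells and 331 CPM in vehicle cells, and its ratio was also 0.30 (0.21 to 0.38). These 3 ranged from low to high levels. RPL35, a protein at the exit of the peptide tunnel, had 1973 CPM in estradiol cells and 1622 CPM in vehicle cells (0.28, from 0.25 to 0.32). RPS2, at the entrance of the mRNA channel, had 3498 CPM in estradiol cells and 2900 CPM in vehicle cells (0.27, from 0.24 to 0.30).

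The lowest ratios belonged mainly to the large subunit, and none reached 1.2-fold. RPL15, another gene of Diamond-Blackfan anaemia, came closest, with 1633 CPM in estradiol cells and 1953 CPM in vehicle cells and a ratio of -0.26 (-0.30 to -0.22). RPL31, near the exit of the peptide tunnel, had 1039 CPM in estradiol cells and 1224 CPM in vehicle cells (-0.24, from -0.28 to -0.19). RPL3, which reaches towards the peptidyl transferase centre, had 1140 CPM in estradiol cells and 1312 CPM in vehicle cells (-0.20, from -0.25 to -0.16). All 3 intervals lay below 0. RPL23A, a docking site for the signal recognition particle at the tunnel exit, had 959 CPM in estradiol cells and 1083 CPM in vehicle cells, a ratio of -0.18. RPS27 was the only small subunit gene among the 6 lowest, with 2075 CPM in estradiol cells and 2340 CPM in vehicle cells and a ratio of -0.17 (-0.21 to -0.14).

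By structure, small subunit genes lay more often above 0 and large subunit genes more often below it. Of all rows 45.6% lay above 0, and of other rows with at least 2000 UMIs 56.3%. With a size factor from the median of ratios, though, 23 large subunit genes lay on each side. In G2M cells 33 large subunit genes lay above 0 and 13 below, beside 44.8% of all rows and 54.2% of those other rows above 0. Of the 32 small subunit genes 21 lay above 0 and 11 below, with a median of 0.04, and summed they had 53250 CPM in estradiol cells and 51564 CPM in vehicle cells. Of the 46 large subunit genes 18 lay above 0 and 28 below, with a median of -0.02, and summed they had 73055 CPM in estradiol cells and 73682 CPM in vehicle cells. The stalk of the large subunit, a flexible arm that recruits the translation factors that hydrolyse GTP, lay on the higher side. RPLP0, its base, had 1596 CPM in estradiol cells and 1456 CPM in vehicle cells (0.13, from 0.09 to 0.17). RPLP2 had 2743 CPM in estradiol cells and 2560 CPM in vehicle cells (0.10, from 0.07 to 0.13), and the interval of its partner RPLP1 reached 0, at 3192 CPM in estradiol cells and 3138 CPM in vehicle cells. The stalk genes therefore did not move equally.

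RPL5 and RPL11, which carry the 5S ribosomal RNA into the large subunit and restrain MDM2 when ribosome assembly fails, were both lower with estradiol. RPL5 had 1210 CPM in estradiol cells and 1372 CPM in vehicle cells (-0.18, from -0.23 to -0.14). RPL11 had 1836 CPM in estradiol cells and 1932 CPM in vehicle cells (-0.07, from -0.11 to -0.04). RPL5 and RPL22 were also counted in the rows of the targeted panel, at greater depth from the same cells. There RPL5 had 11383 panel CPM in estradiol cells and 12792 panel CPM in vehicle cells, a ratio of -0.17 (-0.18 to -0.16) beside -0.18 in the rows of all genes. RPL22 gave -0.04 in both kinds of row.

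RPSA, which is also a cell surface receptor of laminin, had 594 CPM in estradiol cells and 565 CPM in vehicle cells, a ratio of 0.07. RPS6 had 1962 CPM in estradiol cells and 1921 CPM in vehicle cells, a ratio of 0.03 whose interval included 0. Of 10 genes mutated in Diamond-Blackfan anaemia 5 lay on each side of 0. The 33 genes with a bacterial counterpart had a median of 0.02, and the other 45 had -0.00074.

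Within each cell cycle phase, as the authors' annotation assigns it, the order of the genes was much the same. At 1.2-fold, 5 genes were higher in estradiol G1 cells and 1 was lower, beside 11.9% and 10.7% of rows. In S cells 7 were higher and 1 lower, beside 7.55% and 6.93%, and in G2M cells 8 were higher and 0 lower, beside 8.41% and 11.8%. In all 3 phases 52 of 78 genes had the same sign, 32 higher and 20 lower, beside 25.2% and 25.6% of the 6781 rows counted in each phase. Across the 78 genes the ratios in G1 and S cells had a Pearson correlation of 0.87, those in G1 and G2M cells 0.85, and those in S and G2M cells 0.83. These are descriptions over genes of the same 2 libraries.

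**Figure D2:**
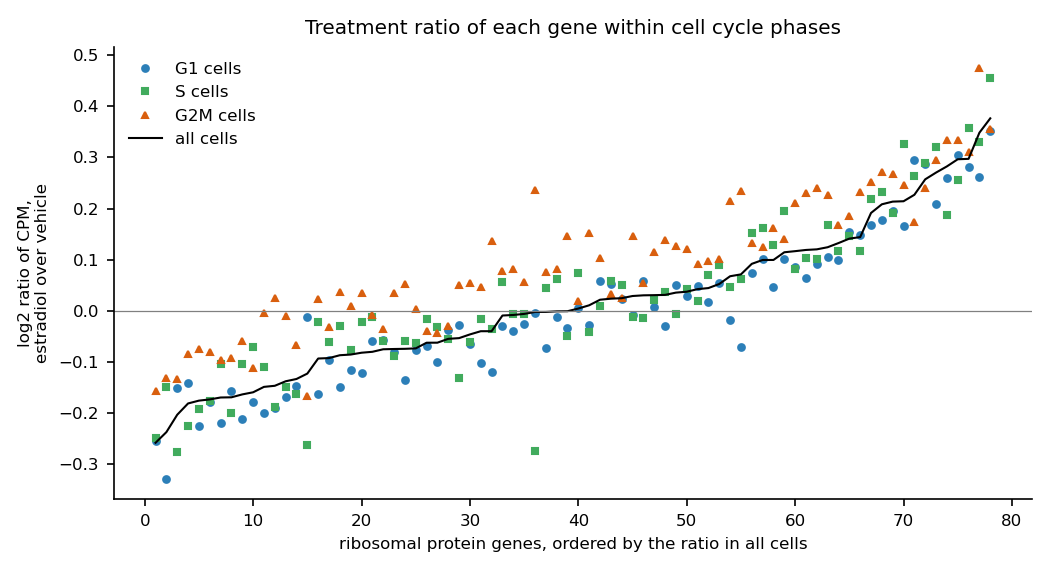
Log2 ratio of CPM in estradiol over vehicle cells within G1, S and G2M cells (symbols) for the 78 genes, ordered by the ratio in all cells (line). Symbols follow the line in every phase, and those of G2M cells lie mostly above it, with a median of 0.08.

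Intervals above 0 in all 3 phases were found for 21 genes, beside 4.6% of the rows counted in each phase and 17.3% of other rows with at least 2000 UMIs. They included the 5 described above as well as RPS21, RPS10, RPS19, RPS9 and RPS12. RPS26 had 494, 513 and 486 CPM in estradiol G1, S and G2M cells, against 387, 374 and 380 CPM in vehicle G1, S and G2M cells. Intervals below 0 in all 3 phases were found for 8 genes, beside 3.32% and 11% of those rows, namely RPL15, RPL31, RPL3, RPL5, RPS27, RPL38, RPL9 and RPS3A. RPL31 was lowest in G1 cells, with 1107 CPM in estradiol cells and 1390 CPM in vehicle cells, a ratio of -0.33.

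The phase of the cell made a larger difference to the summed share than the treatment did. In G1 cells ribosomal protein transcripts took 13.80% of UMIs with estradiol and 13.91% with vehicle. In S cells they took 12.40% with estradiol and 12.15% with vehicle, and in G2M cells 11.90% with estradiol and 11.20% with vehicle. The log2 ratio of estradiol over vehicle was -0.01 in G1 cells, where the size factor turned it to 0.02. G1 cells of clusters 1, 2, 5, 6 and 7 had a higher share with estradiol, and those of cluster 3 a lower one. The ratio was 0.03 in S cells, where leaving out MALAT1 lowered it to 0.0024, and 0.09 in G2M cells. Of the larger groups of S cells, those of clusters 1 and 3 had a higher share with estradiol and those of cluster 0 a lower one. Of the larger groups of G2M cells, those of clusters 0, 4 and 7 had a higher share and those of cluster 3 a lower one. For S over G1 the log2 ratio was -0.15 in estradiol cells and -0.20 in vehicle cells. For G2M over G1 it was -0.21 in estradiol cells and -0.31 in vehicle cells. The step between G1 and G2M was thus smaller in the estradiol library, a difference that 1 library per treatment does not allow to be tested.

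**Figure D3:**
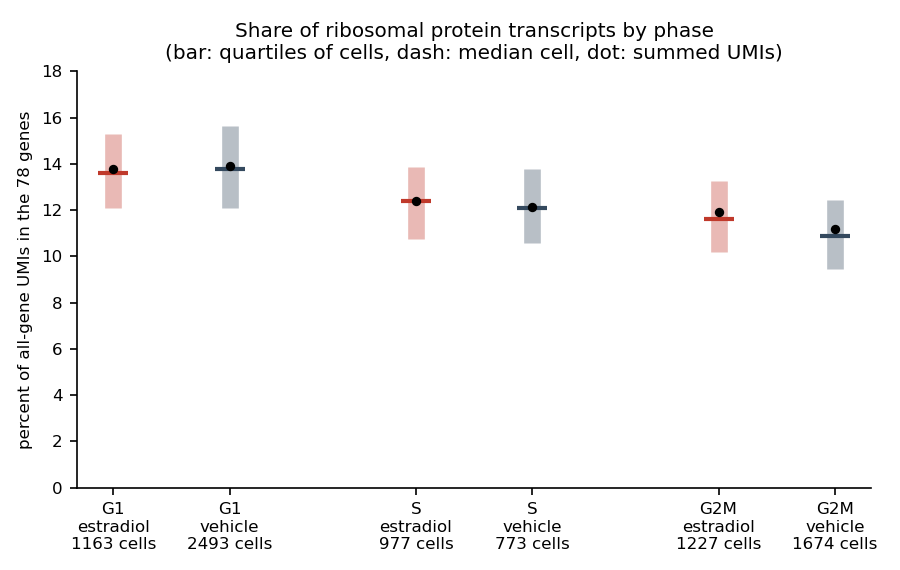
Percent of each cell's UMIs in the 78 genes by phase and treatment (bar, quartiles of cells; dash, median cell; dot, summed UMIs). G1 cells lie highest in both libraries, and the summed share of G2M cells is 11.90% with estradiol and 11.20% with vehicle.

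The number of ribosomal protein UMIs per cell did not follow the share in G2M, where cells also held more UMIs in all. The mean cell held 220.2, 211.4 and 234.2 ribosomal protein UMIs in G1, S and G2M in the estradiol library, and 167.6, 167.0 and 190.8 in the vehicle library. Median UMIs per cell were 1309, 1479 and 1810 in estradiol cells of those phases and 978, 1209 and 1536.5 in vehicle cells. Among cells of 1600 to 2400 UMIs alone, the share was 11.4% in G2M and 13.7% in G1 cells of the estradiol library, and 10.7% in G2M and 13.4% in G1 cells of the vehicle library. In that range of depth G2M cells were thus also lower in both libraries. G1 cells were 34.5% of estradiol cells and 50.5% of vehicle cells, and with equal weight to the 3 phases the ratio of estradiol over vehicle was 0.03. How the authors called the phases was not given in the sources used here.

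Of the 78 genes, 71 in estradiol cells and 75 in vehicle cells lay below 0 for S over G1, and 75 in estradiol cells and 76 in vehicle cells for G2M over G1. Of all rows, 49.1% in estradiol cells and 47.2% in vehicle cells lay above 0 for S over G1. For G2M over G1 those shares were 47.7% and 49.5%. Intervals lay below equality for 61 genes in estradiol cells and 63 in vehicle cells for S over G1, beside 9.98% and 10.6% of rows. Among other rows with at least 2000 UMIs in the cells compared, those shares were 35.3% and 46.2%. For G2M over G1 intervals lay below equality for 68 genes in estradiol cells and 75 in vehicle cells, beside 12.8% and 14.2%. Among other rows with at least 2000 UMIs, those shares were 35.8% and 39.4%. For S over G1 in estradiol cells, 14 genes passed the 1.2-fold rule downwards, beside 8.39% of rows, and 0 upwards, beside 11.9%. In vehicle cells 16 were lower and 1 higher, beside 9.08% and 12.4%. For G2M over G1, 30 genes were lower and 1 higher in estradiol cells, beside 10.9% and 12.2%. In vehicle cells 56 were lower and 1 higher, beside 12.4% and 15%. Among other rows with at least 2000 UMIs the share lower in G2M was 18.4% in estradiol cells and 18.3% in vehicle cells. The 30 of 78 in estradiol cells and 56 of 78 in vehicle cells make 38.5% and 71.8%. The median of G2M over G1 over the genes was -0.23 in estradiol cells and -0.33 in vehicle cells, where that over all rows was -0.02 and -0.0040. The genes ranked alike in both libraries, which share phase calls of the same kind. Across the 78 genes the Spearman correlation was 0.74 for G2M over G1 and 0.77 for S over G1. The Pearson correlation was 0.83 for G2M over G1 and 0.74 for S over G1.

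**Figure D4:**
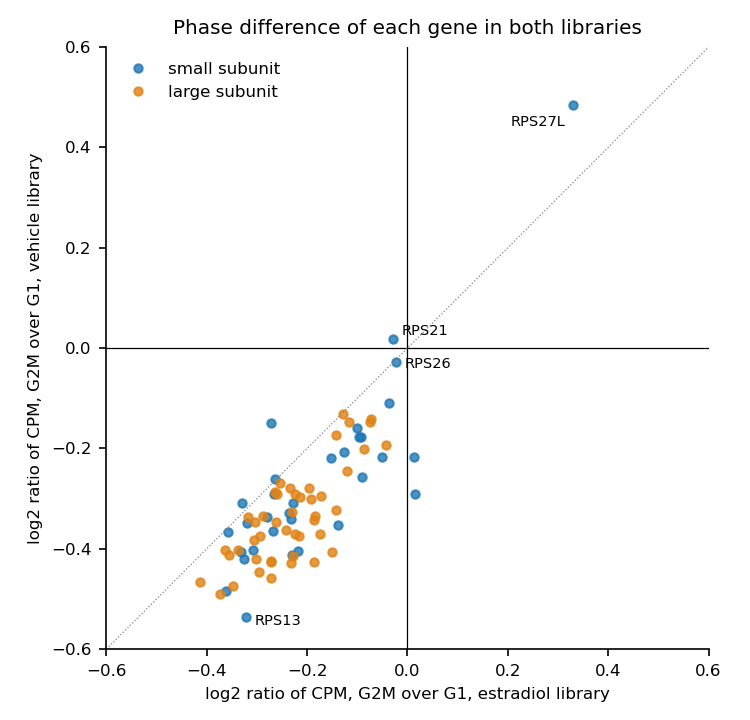
Log2 ratio of CPM, G2M over G1, in the estradiol library (horizontal) and the vehicle library (vertical) for the 78 genes, coloured by subunit; the dotted line marks equality. All large subunit genes lie below 0 in both libraries, and RPS27L alone lies far above it, at 0.33 in estradiol and 0.48 in vehicle cells.

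The 4 genes with the lowest ratios of G2M over G1 in vehicle cells came from both subunits. RPS13 had 1118 CPM in G2M and 1397 CPM in G1 cells of the estradiol library (-0.32), and 1099 CPM in G2M and 1593 CPM in G1 cells of the vehicle library (-0.54). RPS14, the gene whose loss underlies the anaemia of the 5q- syndrome, gave -0.36 in estradiol and -0.48 in vehicle cells. RPL34 gave -0.37 in estradiol and -0.49 in vehicle cells, and RPL37 -0.35 in estradiol and -0.47 in vehicle cells. These 4 genes were lower in G2M in each library, and in estradiol cells the lowest was RPL35A, at -0.41 there and -0.47 in vehicle cells. The stalk moved little, with medians of -0.09 in estradiol and -0.14 in vehicle cells. RPL5 and RPL11 moved more, with a median of -0.33 in estradiol cells and -0.39 in vehicle cells.

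In vehicle cells the 4 lowest ratios of S over G1 were those of large subunit genes. RPL35A, a gene of Diamond-Blackfan anaemia, gave -0.36 in estradiol and -0.41 in vehicle cells. RPL13A, which in the GAIT complex of monocytes also silences inflammatory mRNAs, gave -0.28 in estradiol and -0.38 in vehicle cells. RPL23 and RPL28 gave -0.27 and -0.26 in estradiol cells and -0.36 and -0.35 in vehicle cells. In estradiol cells the lowest were RPL17 at -0.41, RPL5 at -0.40 and RPL10 at -0.39. At the other end, in the order of vehicle cells after RPS27L, RPL35 gave 0.04 in estradiol and 0.11 in vehicle cells, RPLP0 gave 0.02 in estradiol and 0.01 in vehicle cells, and RPS20 gave 0.04 in estradiol and -0.03 in vehicle cells. RPS2 was highest in estradiol cells, at 0.075, and stood at -0.04 in vehicle cells.

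RPS27L, the paralog of RPS27 and a target of p53, ran the other way. It had 146.5, 148.3 and 184.2 CPM in G1, S and G2M cells with estradiol, and 147.8, 177.9 and 206.8 CPM in those of the vehicle library. G2M over G1 its ratio was 0.33 (estradiol) and 0.48 (vehicle), the highest of the 78 in both libraries. Its relative RPS27 had 2343, 1965 and 1946 CPM in G1, S and G2M cells with estradiol and 2650, 2222 and 2059 CPM in those of the vehicle library, a ratio of -0.27 (estradiol) and -0.36 (vehicle). Next to RPS27L, the ratios nearest to or above 0 in vehicle cells were those of RPS21 (0.02), RPS26 (-0.03) and RPS9 (-0.11), while in estradiol cells they were -0.03, -0.02 and -0.04.

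The authors' 8 clusters, of which the construction was not given in the sources used here, differed in their shares. Clusters 0 and 4, which held mainly G2M cells in both libraries, had the lowest shares. Cluster 0 had 11.45% with estradiol and 10.90% with vehicle, and cluster 4 had 11.56% with estradiol and 10.50% with vehicle. Cluster 2, of mainly G1 cells with few UMIs, had the highest, at 15.23% in 82 estradiol cells and 14.34% in 1150 vehicle cells. Cluster 6 had 14.14% with estradiol and 13.65% with vehicle, cluster 5 had 13.25% with estradiol and 13.08% with vehicle, and cluster 1 had 12.92% with estradiol and 12.42% with vehicle. Cluster 7, where MALAT1 took only 1.53% of UMIs with estradiol and 2.05% with vehicle, had 12.76% with estradiol and 11.89% with vehicle. It too held mainly G2M cells, 56.6% with estradiol and 63.0% with vehicle, but also 42.2% and 36.2% G1 cells. Its share was above those of clusters 0 and 4. Among G2M cells alone it was 12.15% with estradiol and 11.42% with vehicle. In the same order G2M cells had 11.45% and 10.79% in cluster 0, and 11.56% and 10.50% in cluster 4.

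**Figure D5:**
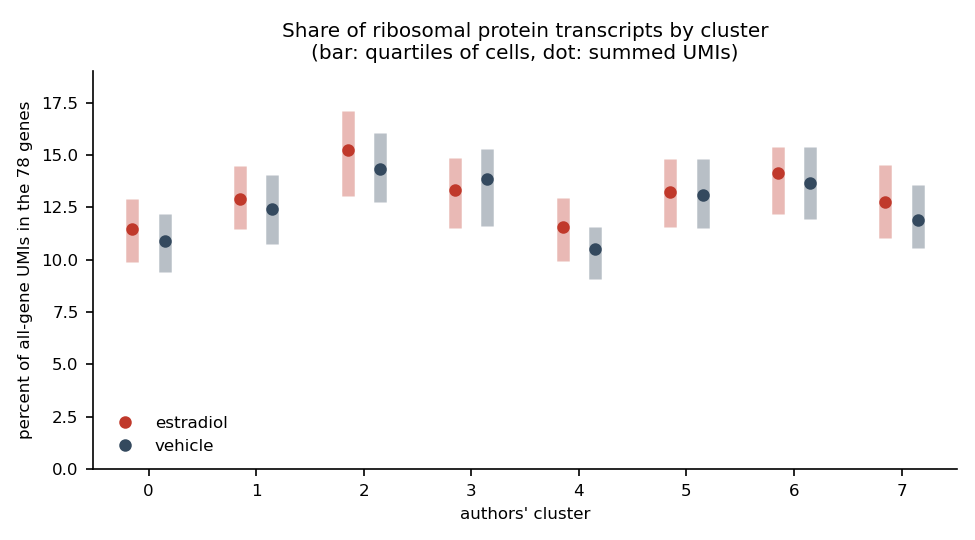
Percent of UMIs in the 78 genes by cluster for estradiol cells (left point of each pair) and vehicle cells (right point), with bars for the quartiles of cells. Estradiol points lie higher in 7 clusters (of which cluster 5 turns to -0.0080 without MALAT1), and in cluster 3 the summed share is 13.32% with estradiol and 13.88% with vehicle.

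In 7 of 8 clusters the share was higher in estradiol cells, by log2 ratios of 0.02 to 0.14, though without MALAT1 cluster 5 gave -0.0080. Cluster 3, which holds the cells with most UMIs, had 13.32% with estradiol and 13.88% with vehicle, a ratio of -0.06 (-0.07 to -0.05). Its median cell had 2769.5 UMIs in the estradiol library and 2785 in the vehicle library, and no doublet caller was run. S cells of cluster 3 went the other way, at 12.76% with estradiol and 12.59% with vehicle. Over single cells the share had a Spearman correlation of -0.45 with the MALAT1 percent in the estradiol library (3367 cells) and of -0.24 in the vehicle library (4940 cells). MALAT1 stands in the denominator of the share. With total UMIs, which are that denominator, the correlation was -0.09 in the estradiol and -0.26 in the vehicle library. Within G1, S and G2M cells it was -0.02, -0.05 and 0.05 in the estradiol library. In the vehicle library it was -0.15, -0.13 and 0.0019. The share did not fall steadily with depth. Below 800, at 1200 to 1600 and from 2400 UMIs it was 14.2%, 12.3% and 13.0% with estradiol, and 14.1%, 11.8% and 13.1% with vehicle.

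Most genes followed the same profile over the 16 groups of library and cluster, which share phase makeup and depth. The correlation of a gene's CPM with the summed CPM of the other 77 had a median of 0.82. Cluster 2 held the highest group for 54 genes, while the lowest was in cluster 4 for 41 and in cluster 0 for 27. The exceptions were RPS27L at -0.62, RPS26 at 0.10, RPLP0 at 0.24, RPS21 at 0.28 and RPL23A at 0.39. RPS27L was highest in cluster 0 of the vehicle library, at 229 CPM, and lowest in cluster 2 of that library, at 132 CPM. RPS26 was highest in cluster 7, at 696 CPM with estradiol and 430 CPM with vehicle. RPLP0 was highest in cluster 3, at 1803 CPM with estradiol and 1801 CPM with vehicle. The highest group exceeded the lowest by 1.31-fold to 2.08-fold, with the widest span for RPL14. That gene varied between 564 CPM in cluster 0 of the vehicle library and 1171 CPM in cluster 2 of the estradiol library. In cluster 2 of the vehicle library RPL14 had 770 CPM. Cluster 2 of the estradiol library had the fewest UMIs of the 16 groups, 62339 in 82 cells. The values of single genes in these groups carry no intervals.

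Relatives outside the naming pattern, listed together with the RPS19 binding protein RPS19BP1, lay on both sides of 0. None of them passed the 1.2-fold rule. FAU, which encodes RPS30 fused to a ubiquitin-like protein, had 545 CPM in estradiol cells and 491 CPM in vehicle cells (0.15, from 0.08 to 0.22). RACK1, a scaffold of the small subunit, gave -0.07. RPL22L1, the paralog of RPL22, had 19.4 CPM in estradiol cells and 22.6 CPM in vehicle cells (-0.22, from -0.58 to 0.14). RPL26L1 gave -0.12, RPL36AL -0.01, RPL7L1 0.11 and RPS19BP1 0.18. By the 1.2-fold rule 0 of these 8 were called, beside the 12% of rows higher and 14.8% lower.

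The other lists are set beside the 12% of all rows called higher and the 14.8% called lower. Of 26 ribosome biogenesis genes 16 were called higher with estradiol and 1 lower, with a median of 0.43 beside 0.00 for the ribosomal protein genes and -0.03 for all rows. BOP1, of the PES1 complex that matures the large subunit, had 34.5 CPM in estradiol cells and 17.6 CPM in vehicle cells (0.97, with a lower bound of 0.64). BYSL, of small subunit assembly, gave 0.89, RRS1, of 5S particle assembly, 0.84, and NOLC1, a nucleolar phosphoprotein, 0.68.

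For the mitochondrial ribosome, 18 of 77 genes were called higher and 5 lower (all rows 12% and 14.8%), with a median of 0.14. MRPL12 gave 0.84, MRPL23 0.71, MRPS12 0.56 and MRPL10 -0.51. Of 24 translation initiation genes 6 were called higher and 1 lower (all rows 12% and 14.8%), with a median of 0.10. EIF5A had 115 CPM in estradiol cells and 82.8 CPM in vehicle cells (0.48), EIF4G1, the scaffold of the cap complex, gave 0.47, and EIF2S3 gave -0.42.

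Of 23 other genes known for TOP mRNAs 0 were called higher with estradiol and 5 lower (all rows 12% and 14.8%), with a median of -0.07. Within phases their median was -0.12 in G1, -0.01 in S and 0.02 in G2M cells. The 5 included EIF3F (-0.48), EIF3L (-0.43) and EIF3E (-0.39), of an initiation factor complex, and TPT1 (-0.29). EEF1A1, the main elongation factor, had 4940 CPM in estradiol cells and 5611 CPM in vehicle cells (-0.18, from -0.21 to -0.16). In G2M over G1 the 23 genes had medians of -0.17 in estradiol and -0.26 in vehicle cells, with 6 lower and 1 higher in estradiol cells and 11 lower and 1 higher in vehicle cells.

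Among 16 genes of the mTOR pathway and TOP regulation 4 were called higher and 1 lower (all rows 12% and 14.8%), with a median of 0.03, 9 above 0 and 7 below. EIF4EBP1, which holds back cap-dependent translation until mTOR phosphorylates it, had 419 CPM in estradiol cells and 278 CPM in vehicle cells (0.59, from 0.50 to 0.67). MYC, a transcription factor that drives ribosome synthesis, had 52.2 CPM in estradiol cells and 37.0 CPM in vehicle cells (0.50). LARP1 gave 0.32. DDIT4, an inhibitor of mTOR, was counted at only 17 UMIs in estradiol cells and 59 UMIs in vehicle cells, a ratio of -1.57 (-2.45 to -0.78).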

How the data were processed

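Single-cell expression was deposited by the authors as natural log values, 1 column per cell, with an annotation of each cell's treatment, phase and cluster and its UMI totals. The build hg38 and, with no role given, UMI-tools 0.5.3, Bowtie2 2.3.2, cutadapt 1.8.3, SAMtools and Cell Ranger 3.0.2 are listed per the submitters' processing notes. Undoing that transform (the log of 1 plus UMIs per 10000 of the cell) gave counts of which 100% came out whole within 1e-06, and the recovered counts matched the totals deposited by the authors in 100% of cells. All deposited cells were used, doublets were not called, and 4 barcodes occur in both libraries. UMIs were summed over cells (Python 3.11.15, SciPy 1.17.1) and divided by the library total. Ratios have exact Clopper-Pearson 95% intervals conditional on the sum of both counts. CPM intervals are exact Poisson, and shares exact binomial.

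Members and the 13 gene lists were chosen with earlier results of these data known. Named genes were the 6 highest and 6 lowest ratios, the 5 with most UMIs, the 4 highest and 4 lowest phase ratios in vehicle cells, the stalk, RPL5, RPL11, paralogs, RPSA, RPS6 and up to 4 per other list; other genes were named after their values were seen, and a few that this choice takes are not reported here. Many of these genes have near-identical processed pseudogenes, and how reads shared with them were counted was not given in the sources used here; RPL17, RPS10 and RPL36A also have readthrough genes, whose rows held 0 to 8 UMIs. The ratios, intervals and calls were tested on simulated library totals of each gene, and the summation over cells was not.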

Additional observations from a re-analysis of the deposited data

Results flagged for a closer look

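With all clusters together, the summed share of ribosomal protein transcripts took opposite directions between phases. Its log2 ratio of estradiol over vehicle was -0.012 in G1, 0.029 in S and 0.087 in G2M cells. Within clusters the share in G1 cells was 13.78% with estradiol and 13.51% with vehicle in cluster 1, and 15.47% and 14.38% in cluster 2. In the same order it was 13.37% and 13.13% in cluster 5, 13.99% and 13.67% in cluster 6, and 13.48% and 12.79% in cluster 7. G1 cells of cluster 3 went the other way, at 13.96% with estradiol and 14.73% with vehicle. G2M cells of cluster 3 were also lower with estradiol, at 13.10% against 13.58%, while those of clusters 0, 4 and 7 were higher. S cells of cluster 0 were lower with estradiol, at 11.28% against 11.38%, while those of clusters 1 and 3 were higher. RPL18 gave -0.12 in G1 and 0.14 in G2M cells. RPL41 gave -0.072 in G1 and 0.075 in G2M cells. Between clusters, the summed share gave -0.059 in cluster 3, against 0.070, 0.058, 0.086, 0.14, 0.018, 0.051 and 0.10 in clusters 0, 1, 2, 4, 5, 6 and 7. With a size factor from the median of ratios G1 cells gave 0.022, and without MALAT1 cluster 5 gave -0.0080. Each of the log2 ratios as reported had an interval on its own side of 0. The differences themselves were not tested, since each treatment has 1 library.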

How the results depend on the processing

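The log2 ratio of the summed share, 0.01 as reported, was 0.046 with a size factor from the median of ratios, by which the median of all rows moved 0.034, and 0.020 without the 5% of cells with most UMIs. It was 0.028 for cells with 800 or more UMIs, 0.032 with equal weight to each phase, 0.056 with equal weight to each cluster, -0.0059 as a mean of per-cell shares and -0.0060 without MALAT1, an alternative added after seeing the data. In the same order the median over the 78 genes was 0.036, 0.016, 0.025, 0.031, 0.061, -0.0050 and -0.016, and 0.0097 without the 10% of cells highest in mitochondrial percent. Genes higher at 1.2-fold numbered 4 to 7 over these settings, and 0 at 1.5-fold. Genes lower numbered 1 without MALAT1, without the cells highest in mitochondrial percent and as a mean of per-cell shares. Across all 11 settings 60 of 78 genes had the same sign.

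For G2M over G1 the summed ratio was -0.20 in estradiol cells and -0.32 in vehicle cells without MALAT1. In vehicle cells it was -0.30 with 800 or more UMIs and -0.32 without mitochondrially encoded genes. With 800 or more UMIs the share was 15.8% in estradiol and 14.1% in vehicle cells of cluster 2, and 11.7% in vehicle cells of cluster 7. No paired analysis was possible because each treatment has 1 library and the labels give no replicate numbers. The spread between cultures is unknown.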
